A study of Mus musculus with 11 samples.

Results

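The rows described here are the transcripts whose level was lower within 1 h of both PDGFA and FGF1 than in serum-starved mouse palatal mesenchyme cells. A row was taken where its starved level was at least 1 FPKM (fragments mapped to a transcript, divided by its length and by the library total) and both ligand values were at most 0.75 times the starved value. Transcripts under 200 nt, collagens, Y-linked rows and failed estimates were left out. Of the 23286 rows deposited, 11301 met the conditions on level, length and estimate, and 107 of these (0.947%) were members. Another 13 rows met both ratio limits and were left out: 8 were under 200 nt, 4 had no transcript length, and Col23a1 is a collagen. The members were thus chosen by the starved level and both ratios, and the size of those ratios is a description and no test of either contrast.

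The cells were mouse embryonic palatal mesenchyme cells (MEPMs), cultures of palate cells from embryos at E13.5. They were grown in 10% FBS and held overnight in 0.1% FBS, which all 3 groups share. The groups were 4 libraries of starved cells, 4 taken 1 h after PDGFA at 30 ng/mL, and 3 taken 1 h after FGF1 at 50 ng/mL together with heparin at 1 µg/mL. The deposited table holds 1 FPKM per group with a lower and an upper bound, and no value per library, so no spread between replicates can be given and the depth is unknown. What level of confidence the bounds stand for is not known. FGF1 and heparin cannot be told apart, and both ratios divide by the same starved value, so the PDGFA and FGF1 ratios are not independent of each other. In these bulk samples fewer cells of a type and less RNA per cell cannot be told apart.

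The 7 palatal mesenchyme markers (Pdgfra, Prrx1, Twist1, Osr2, Msx1, Vim and Thy1) were all above 1 FPKM in every group. They summed to between 2369 and 2975 FPKM, most of it Vim, while Pdgfra and Osr2 were between 2.46 and 3.87 FPKM. The 5 epithelial markers summed to less than 1 FPKM in every group, the highest being 0.719 FPKM with PDGFA, and Ptprc, a leukocyte gene, was at 0.061 FPKM or less. The 4 endothelial markers summed to between 3.47 and 4.08 FPKM, with Pecam1 and Cdh5 near 0. The 5 skeletal muscle markers summed to 18.8 FPKM in starved cells, 91.2 with PDGFA and 26.5 with FGF1, most of it Acta1. The 4 neural and glial markers summed to between 38.7 and 51.0 FPKM, most of it Tubb3, and the 4 cartilage and bone markers to between 93.5 and 104 FPKM. The part of these shifts in the members' values was not tested.

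By the rule used here, 53.3% of the members encode zinc-finger proteins of 1 kind. C2H2 zinc fingers are short folds in which paired cysteines and paired histidines hold a zinc ion, and each finger can read a few bases of DNA. Genes with long rows of such fingers form one of the largest families of vertebrate transcription factors. Many carry a KRAB domain, which recruits the corepressor TRIM28, and many silence transposable elements. They lie in clusters that arose by repeated duplication. The row of fingers shows directly in the coding sequence as a repeat of 28 codons, 21 of finger and 7 of linker. All 57 C2H2 members held at least 1 finger followed directly by another at this spacing. The first such unit of each gene is shown for the 5 neighbouring members on chromosome 7 (Zfp109 to Zfp94) and for Zfp759 and Zfp14, the zinc-finger members lowest by the larger of the 2 ratios. Each is 84 bases of coding sequence from GENCODE M21, with the 2 cysteine codons (TGT or TGC) and the 2 histidine codons (CAT or CAC) in capitals and the linker as the last 7 codons.
Zfp109: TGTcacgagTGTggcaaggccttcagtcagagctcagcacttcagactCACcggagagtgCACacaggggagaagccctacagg
Zfp108: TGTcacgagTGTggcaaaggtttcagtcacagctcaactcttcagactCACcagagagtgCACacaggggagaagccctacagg
Zfp93: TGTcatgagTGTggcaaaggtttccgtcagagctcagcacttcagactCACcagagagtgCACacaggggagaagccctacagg
Zfp61: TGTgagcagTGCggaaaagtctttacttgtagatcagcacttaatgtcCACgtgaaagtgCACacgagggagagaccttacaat
Zfp94: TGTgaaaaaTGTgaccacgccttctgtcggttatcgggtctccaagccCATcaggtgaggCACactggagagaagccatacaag
Zfp759: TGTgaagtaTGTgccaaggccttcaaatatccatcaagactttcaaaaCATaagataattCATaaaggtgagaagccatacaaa
Zfp14: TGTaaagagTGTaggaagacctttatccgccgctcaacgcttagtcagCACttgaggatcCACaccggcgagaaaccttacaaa
Across the 57 genes a unit carried the commonest base at a median of 69.0% of its positions, and its linker at a median of 81.0%.

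A row was counted as C2H2 where its translated GENCODE M21 coding sequence held at least 5 matches of the finger spacing, a limit chosen after the values were seen. Finger numbers below are these matches, and a finger of another spacing is not counted. C2H2 rows made up 321 of the 11301 compared rows (2.84%) and 57 of the 107 members (53.3%). Put the other way, 17.8% of the C2H2 rows were members against 0.455% of the 10980 other rows. The 57 held between 7 and 21 fingers. Of them 51 have symbols that start with Zfp, Zscan or Zkscan, and the others are A430033K04Rik, AW146154, Rsl1, Gm14326, 9130023H24Rik and 2810021J22Rik. The name list holds 314 compared rows, and none of its 62 rows with fewer than 5 fingers was a member. Over all compared rows 0.947% were members, so the lack of members among these 62 does not set them apart.

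Zfp759 (chr13:67128228-67141787, mm10) has 19 fingers. Its level was 1.04 FPKM (deposited bounds 0.645 to 1.42) in starved cells, 0.542 (0.153 to 0.941) with PDGFA and 0.511 (0.263 to 0.766) with FGF1, ratios of 0.522 and 0.492. Zfp14 (chr7:30036359-30051396), with 13 fingers, had 1.18 FPKM (0.747 to 1.61), 0.653 (0.166 to 1.14) and 0.578 (0.285 to 0.865), ratios of 0.555 and 0.491. In both genes both ligand values lay below the starved lower bound, while all the intervals overlapped. Zfp976, with 18 fingers, had 1.13 FPKM in starved cells, 0.694 with PDGFA and 0.655 with FGF1. Zfp882, with 13 fingers, had 1.12, 0.690 and 0.705 FPKM, and Zfp563, with 10, had 1.46, 0.852 and 0.948 FPKM. These genes stood near the low end of what was compared, and most C2H2 members did. Zfp976 shares 52.6% of its 31-base words with other genes, so its reads cannot be assigned to it with certainty.

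Only 3 zinc-finger members were at 5 FPKM or more, Zfp354c, Zfp467 and Zfp60. Zfp354c (chr11:50811085-50827731), with 11 fingers, had 10.6 FPKM (8.30 to 12.9) in starved cells, 7.60 (4.02 to 11.2) with PDGFA and 7.56 (5.15 to 9.96) with FGF1. Both values lay below the starved lower bound, at ratios of 0.717 and 0.713. Zfp60, with 19 fingers, had 5.19 FPKM (3.90 to 6.48), 3.27 (1.40 to 5.14) and 3.39 (2.14 to 4.65), ratios of 0.631 and 0.654, and here too both values lay below the starved lower bound. Zfp467, with 12 fingers, had 5.95, 4.36 and 4.17 FPKM, ratios of 0.733 and 0.701 and all within the starved bounds of 3.42 to 8.49. At a lower level, Zfp3, with 13 fingers, had 2.59 FPKM in starved cells, 1.71 with PDGFA and 1.31 with FGF1, and only the FGF1 value lay below its starved lower bound of 1.63.

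**Figure D1:**
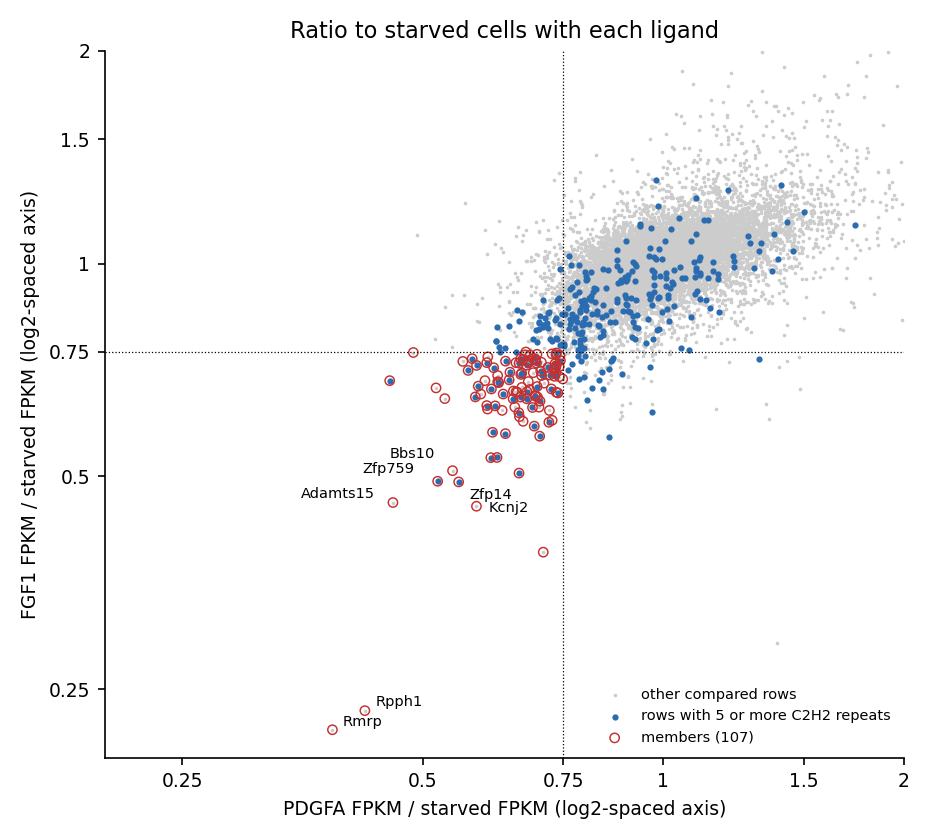
Each point is 1 compared row, with the ratio of its PDGFA value to its starved value on the x axis and that of its FGF1 value on the y axis, both on log2-spaced axes; blue points have 5 or more C2H2 repeats, red circles mark the 107 members and the dotted lines stand at 0.75. The blue points lie toward the lower left of the grey cloud, most members sit just inside the limits, and Rmrp, Rpph1, Adamts15 and Kcnj2 lie farther out; 108 rows with a ratio outside 0.2 to 2 are not drawn.

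The C2H2 rows are described next as a whole, members included. With PDGFA 258 of the 321 C2H2 rows (80.4%) were below their starved value, against 50.7% of the other rows, and their median log2 ratio was -0.30 against -0.003. With FGF1 279 (86.9%) were below, against 42.6%, at a median log2 ratio of -0.24 against 0.03. At most 0.75 times the starved value were 97 C2H2 rows (30.2%) with PDGFA and 78 (24.3%) with FGF1, where all compared rows gave 3.38% and 1.88%. Zfp182, Zfp930 and Kctd21, the 3 rows nearest outside the limit, had larger ratios of 0.7504, 0.7506 and 0.7506, and Engase, Ifit1 and E130311K13Rik, the 3 nearest inside, had 0.749, 0.749 and 0.7499. Kctd21 encodes a BTB-domain protein and Engase a cytosolic deglycosylating enzyme.

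The share of members differed with the number of fingers. Among the 10569 rows with no finger, 42 (0.397%) were members. Of the 169 rows with 1 to 4 fingers, which take in the short arrays of the EGR factors, only Zbtb3 was (0.592%). The share was 11.5% (15 of 130) at 5 to 9 fingers, 23.8% (30 of 126) at 10 to 14 and 18.5% (12 of 65) at 15 to 33. Over the same 5 classes the median log2 ratio of all rows was -0.001, -0.04, -0.18, -0.34 and -0.36 with PDGFA, and 0.03, -0.04, -0.18, -0.28 and -0.28 with FGF1. The classes also differ in level and composition. The median starved level was 12.9 FPKM with no finger and 2.77 FPKM at 15 to 33, and the median GC content was 50.3% and 43.7%.

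**Figure D2:**
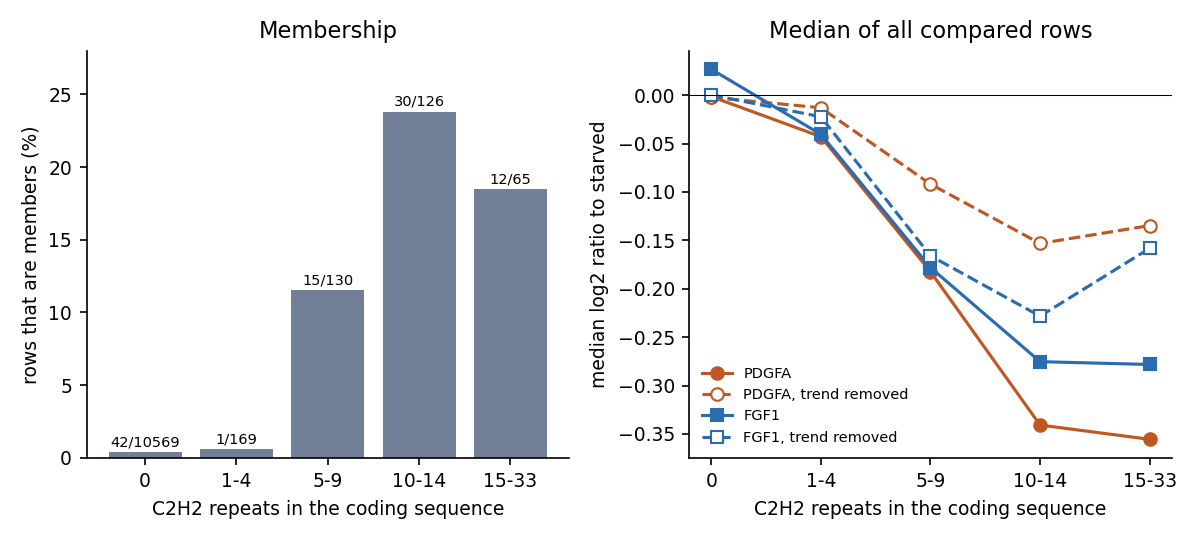
The left panel gives the percentage of compared rows that were members by the number of C2H2 repeats, with members and rows printed above each bar. The right panel gives the median log2 ratio of all rows in each class with PDGFA (circles) and FGF1 (squares), as deposited (filled) and after removing a trend on GC content, length and level (open); the medians of the classes with 5 or more repeats stay below 0 in every series and are closer to 0 with the trend removed, most of all with PDGFA.

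Low levels were common among the members, with 57 at 1 to 2 FPKM, 38 at 2 to 5 and 12 at 5 or more, and a median of 1.89 FPKM against 12.1 over the compared rows. At 1 to 2 FPKM 39.0% of C2H2 rows (32 of 82) and 2.90% of other rows (25 of 863) were members. At 2 to 5 FPKM the shares were 18.2% (22 of 121) and 0.916%, and at 5 FPKM or more 2.54% (3 of 118) and 0.108%. Zinc-finger rows thus had the larger share at each level, and the share was smaller at higher levels in both classes. Among C2H2 rows at 5 FPKM or more the median log2 ratio was -0.12 with each ligand.

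PDGFA ratios also followed base composition. Across the 11301 compared rows, which share the same libraries, Spearman's correlation between GC content and the ratio was 0.604 with PDGFA and 0.181 with FGF1. The members had a median GC of 44.9% against 50.2%, and 58 of them (54.2%) lay in the lowest 2 of 8 equal GC classes. Within the lowest class the median log2 PDGFA ratio was -0.43 for C2H2 rows and -0.19 for the others, and with FGF1 it was -0.27 and 0.01. C2H2 rows had the lower median in all 8 classes with each ligand. In the highest 2 classes, though, C2H2 rows had PDGFA medians above the starved value, at 0.12 and 0.18. Their FGF1 medians there were -0.18 and -0.07. With a trend on GC, length and level removed, their median log2 ratio was -0.12 with PDGFA and -0.19 with FGF1, and 15 C2H2 rows (4.67%) still met both limits. The part of base composition in the remaining difference was not tested.

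**Figure D3:**
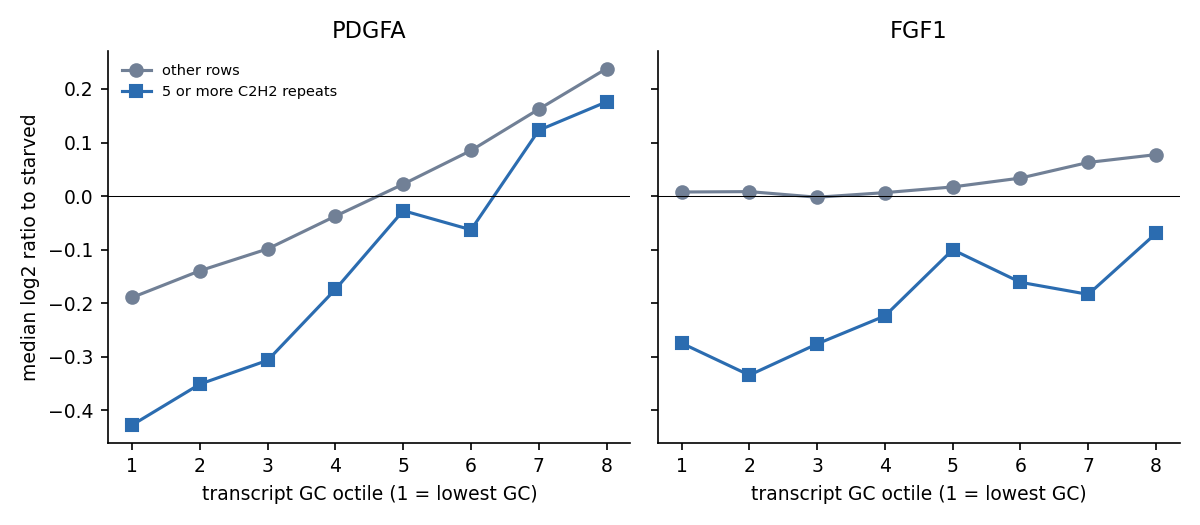
Compared rows were split into 8 equal classes of transcript GC content (x axis, lowest first), and the y axis gives the median log2 ratio to starved cells with PDGFA (left) and FGF1 (right) for rows with 5 or more C2H2 repeats (squares) and all others (circles). With PDGFA both lines are higher in the highest GC class than in the lowest, with FGF1 the other rows stay within 0.1 of 0, and the squares lie below the circles in all 8 classes of both panels.

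Zinc-finger members were found on some of the chromosomes that hold compared C2H2 rows and were absent from others. Among those without any, chromosomes 4, 3 and 18 held 14, 9 and 9 compared C2H2 rows and 0 C2H2 members. Chromosome 7 held 22 members, 19 of them C2H2, which is 33.3% of the C2H2 members, and 24.6% of the compared C2H2 rows. Chromosome 17 held 15.8% of the C2H2 members and 11.5% of the compared C2H2 rows, chromosome 13 held 12.3% and 8.10%, and chromosome 11 held 8.77% and 5.61%. Chained at gaps of up to 500 kb, 38 of the 57 fell into 12 clusters of at least 2. At chr7:24227795-24316666 the 5 compared C2H2 rows, Zfp109, Zfp108, Zfp93, Zfp61 and Zfp94, were all members, the genes whose finger units are printed above. Zfp94 had 1.39 FPKM (0.860 to 1.91) in starved cells, 0.844 (0.220 to 1.47) with PDGFA and 0.737 (0.378 to 1.11) with FGF1. Zfp61 had 4.27 FPKM (2.95 to 5.58), 2.94 (1.30 to 4.58) and 2.52 (1.51 to 3.51). Both ligand values of both genes lay below the starved lower bound. Zfp108 and Zfp93 share 22.9% and 28.8% of their words with other genes, so their values are less certain.

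The 12 clusters also held 24 C2H2 rows that were no members. Of these 23 were below their starved value with PDGFA, at a median log2 ratio of -0.43, and 22 with FGF1, at -0.28. All 264 C2H2 rows that were no members, these 24 included, had medians of -0.20 and -0.19. The clusters were chosen by where members lie, and the part of level, GC content and shared words in this difference was not tested. At chr13:67069398-67729173 Zfp759, Zfp429, Zfp65, Rsl1 and the row of Zfp708 and Rslcan18 were members. Rsl1 is known as a repressor of sex-limited liver genes. Zfp429, Rsl1 and Zfp65 share 42.1%, 41.6% and 22.8% of their words with other genes, so their values are less certain. The 9 other C2H2 rows of this cluster had a median of -0.47 with PDGFA and -0.26 with FGF1. Among them Zfp87 had 3.87 FPKM in starved cells, 2.71 with PDGFA and 3.19 with FGF1, and Zfp748 had 2.81, 2.74 and 2.69, so the ratios differed within the cluster. At chr17:32817204-33110704 Zfp799, Zfp870, Zfp952, Zfp763 and Zfp563 were members, and Zfp472, which was not, had 1.997 FPKM, 1.43 and 1.64. At chr5:138139702-138648905 Zfp113, Zfp157 and A430033K04Rik were members, and Zfp68 was not, at 8.23 FPKM, 6.77 and 7.27. At chr7:29859979-30072823, the cluster of Zfp14, the non-member Zfp568 was higher with both ligands, at 11.4 FPKM in starved cells, 16.3 with PDGFA and 13.02 with FGF1. Over all members 13 (12.1%) shared at least 20% of their words with other genes, 11 of them C2H2, against 6.28% of compared rows.

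Only Kcnj2 and Adamts15 had a deposited interval wholly apart from that of starved cells, and only with FGF1. Over all compared rows 0 (0%) lay apart below starved cells with PDGFA and 2 (0.0177%) with FGF1, and these 2 are the same genes. Kcnj2 (chr11:111066164-111076825) encodes the inward rectifier Kir2.1, a potassium channel that sets the resting membrane potential and whose loss causes craniofacial and digit defects. It had 6.61 FPKM (5.10 to 8.12) in starved cells, 3.86 (1.99 to 5.74) with PDGFA and 3.00 (1.964 to 4.03) with FGF1, ratios of 0.584 and 0.454. Adamts15 (chr9:30899155-30922452), a secreted metalloprotease that cleaves proteoglycans such as versican, had 1.41 FPKM (0.996 to 1.83), 0.648 (0.218 to 1.08) and 0.648 (0.366 to 0.925), a ratio of 0.459 with each. The PDGFA intervals of both overlapped those of starved cells. With the trend on GC, length and level removed, Kcnj2 stayed apart with FGF1, at a ratio of 0.473, and Adamts15, at a ratio of 0.512, did not.

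The relatives of both genes were compared from lists of the same families. Kcnj2 was the only member among 14 potassium channel genes (7.14%), against 0.947% of all compared rows. The median log2 ratio of the 14 was 0.08 with PDGFA and 0.03 with FGF1. Kcnj4, another inward rectifier, had 2.15, 2.31 and 2.62 FPKM in starved, PDGFA and FGF1 cells, and the 2-pore channel Kcnk1 had 14.2, 15.9 and 15.1. Adamts15 was the only member among 17 ADAMTS and ADAMTS-like genes (5.88%), with medians of 0.07 and -0.01. Adamts5, an aggrecanase, had 96.8, 105 and 110 FPKM, and Adamts1 had 109, 118 and 142. The low values of Kcnj2 and Adamts15 were thus not seen in the median of either family. The 250 bases before the Kcnj2 start (RefSeq, GRCm38.p6, chr11:111065914-111066163, plus strand) are printed as the one such region of these 2 genes in the table used, with a CACGTG E-box in capitals.
Kcnj2: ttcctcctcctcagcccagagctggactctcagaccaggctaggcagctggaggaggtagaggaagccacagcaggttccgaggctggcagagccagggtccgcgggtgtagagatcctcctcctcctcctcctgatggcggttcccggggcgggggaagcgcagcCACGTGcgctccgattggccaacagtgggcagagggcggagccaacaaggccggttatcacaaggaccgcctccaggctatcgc
The region is rich in G and C, at 65.6%.

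Gdf10, a BMP family ligand also called BMP3B, had 5.42 FPKM (3.81 to 7.03) in starved cells, 3.41 (1.47 to 5.34) with PDGFA and 3.36 (2.004 to 4.71) with FGF1. Both values lay below its starved lower bound. It was the only member among 47 BMP and TGF-beta pathway genes (2.13%, against 0.947% of all compared rows), whose medians were 0.04 and 0.07. Hgf, the ligand of the MET receptor, had 1.45 FPKM (0.912 to 1.99), 0.869 (0.276 to 1.47) and 0.992 (0.553 to 1.42), and only the PDGFA value lay below the starved bound. Nmb, which encodes the peptide neuromedin B, had 1.07, 0.730 and 0.712 FPKM, all inside wide starved bounds of 0.380 to 1.74. Igsf10, a large secreted immunoglobulin-domain protein, was the most abundant protein-coding member at 14.7 FPKM (11.5 to 18.0), with 10.8 (5.43 to 16.2) and 10.96 (7.29 to 14.6). Its ratios of 0.734 and 0.743 were close to the limit, and both values lay below the starved lower bound.

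Of 51 genes of G protein signalling 3 (5.88%) were members, against 0.947% of all compared rows. Ednra, the endothelin receptor that patterns the lower jaw, had 4.05 FPKM (2.97 to 5.12) in starved cells, 2.94 (1.41 to 4.47) with PDGFA and 2.43 (1.54 to 3.31) with FGF1. Rgs2, which shortens Gq signalling, had 3.31 FPKM (2.33 to 4.28), 2.26 (1.00 to 3.51) and 2.46 (1.52 to 3.39). P2ry6, a receptor for UDP, had 1.16, 0.835 and 0.719 FPKM. In Ednra both values lay below the starved lower bound, in Rgs2 only the PDGFA value did, and in P2ry6 neither did. The median of the 51 was 0.03 with PDGFA and 0.01 with FGF1, and Rgs16, another regulator of the same kind, had 2.36, 12.5 and 7.48 FPKM. Gucy1a1, a subunit of the nitric oxide receptor guanylate cyclase, had 1.40 FPKM (0.966 to 1.84), 0.788 (0.295 to 1.28) and 1.02 (0.606 to 1.43).

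Among transcription regulators outside the zinc-finger family, Heyl, a Notch target of the HEY family, had 3.10 FPKM (2.28 to 3.92) in starved cells, 2.10 (0.983 to 3.23) with PDGFA and 2.25 (1.44 to 3.06) with FGF1. It was the only member of 13 Notch pathway genes (7.69%), against 0.947% of all compared rows. In this list Hey2, another HEY factor, had 2.70, 1.59 and 2.24 FPKM and Hes1, another Notch target, had 20.96, 39.0 and 49.7. Rarb, a retinoic acid receptor, had 3.49 FPKM (2.44 to 4.54), 2.57 (1.15 to 3.97) and 2.51 (1.54 to 3.47). Meox2, a homeobox factor whose loss gives cleft palate in mice, had 1.43 FPKM (0.876 to 1.96), 1.06 (0.341 to 1.77) and 1.02 (0.551 to 1.48), all within the starved bounds. It was the only member among 60 palate and craniofacial transcription factors (1.67%), whose medians were 0.04 and -0.03. None of the 22 immediate early transcription factors, the genes that growth factors are known for inducing, was a member, and their medians were 1.05 and 1.22. Over all compared rows 0.947% were members, so the lack of members does not by itself set this short list apart.

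Ppp1r3b and Ppp1r3d both encode subunits that bring protein phosphatase 1 to glycogen. Ppp1r3b had 6.58 FPKM (5.01 to 8.14) in starved cells, 4.67 (2.41 to 6.91) with PDGFA and 4.46 (2.96 to 5.95) with FGF1. Ppp1r3d had 1.38, 0.967 and 0.866 FPKM. Arrdc3, an arrestin-domain adaptor related to Txnip, had 7.66 FPKM (5.85 to 9.47), 5.32 (2.64 to 8.02) and 5.70 (3.82 to 7.59), both below the starved lower bound. Genes that FOXO factors switch on are known to be high without growth factors, and 0 of 33 such genes were members, with medians of -0.05 and -0.03. At the 0.947% of all compared rows, a list of this size would hold under 1 member, so the count does not set it apart. Foxo1 itself, at 3.86, 2.63 and 2.92 FPKM, and Txnip, at 21.2, 14.7 and 16.7, missed the limit with FGF1 at ratios of 0.757 and 0.788.

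**Figure D4:**
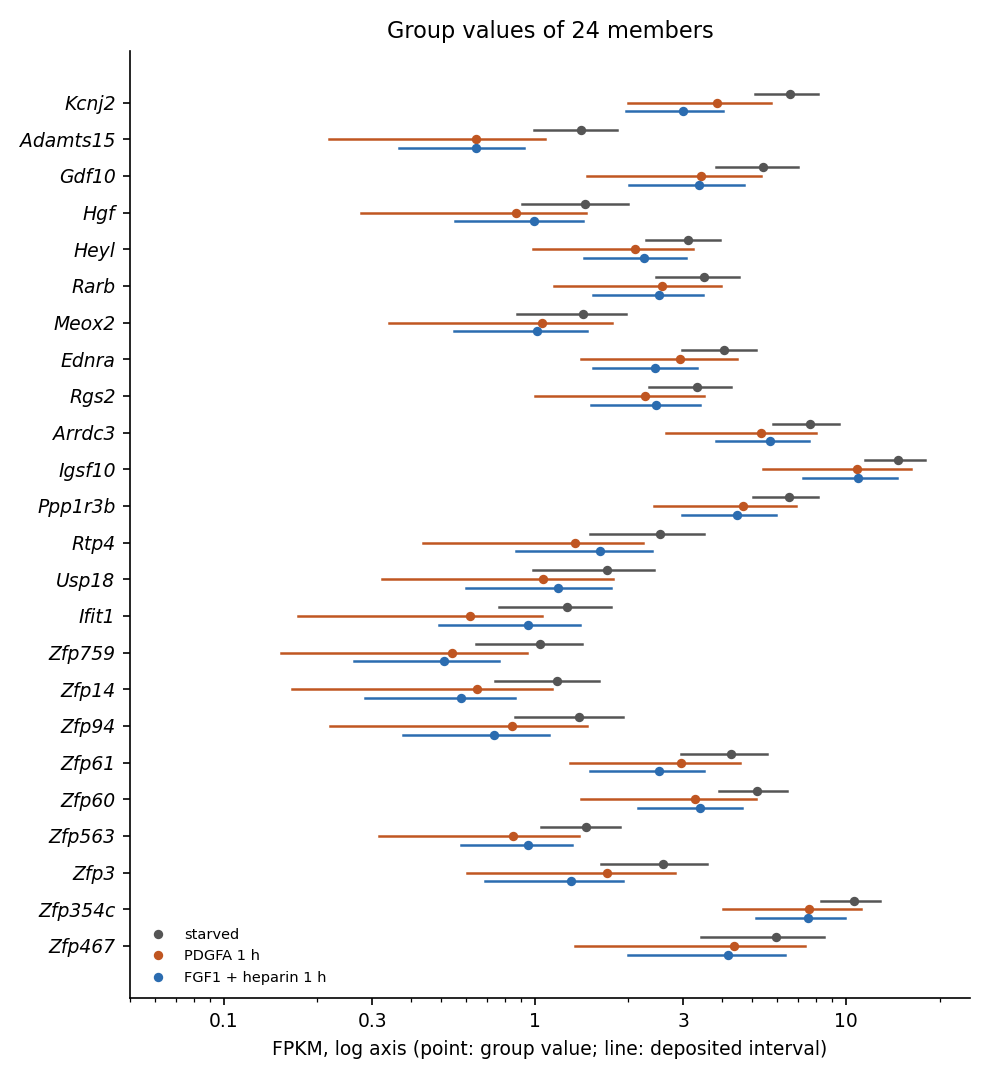
Points give the FPKM of 24 members, chosen to show their main kinds, in starved cells (grey), with PDGFA (orange) and with FGF1 and heparin (blue), on a log axis, and lines run between the deposited bounds. The blue line lies wholly to the left of the grey line only for Kcnj2 and Adamts15, and the orange line, the widest of the 3 in most genes, overlaps the grey line in all 24.

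A group of interferon-stimulated genes stood out when the members were read, and its list of 39 compared genes was written after the values were seen. Of these 6 (15.4%) were members, against 0.947% of all compared rows: Rtp4, Dtx3l, Usp18, Slfn9, Irgm2 and Ifit1. Rtp4, a chaperone of receptors that also acts against viruses, had 2.52 FPKM (1.501 to 3.49) in starved cells, 1.34 (0.436 to 2.23) with PDGFA and 1.62 (0.872 to 2.37) with FGF1. Usp18, which removes the ubiquitin-like protein ISG15, had 1.71 FPKM (0.989 to 2.41), 1.06 (0.323 to 1.78) and 1.19 (0.602 to 1.76). Ifit1, a sensor of foreign RNA caps, had 1.27 FPKM (0.765 to 1.76), 0.618 (0.173 to 1.05) and 0.950 (0.491 to 1.40), with the highest ratio of FGF1 to PDGFA of any member, 1.54. With PDGFA 35 of the 39 were below their starved value, at a median log2 ratio of -0.33, and with FGF1 27 were, at -0.11. The members of this list were all under 3 FPKM in starved cells. Slfn9 shares 24.4% of its words with other genes. The PDGFA bounds of Dtx3l ran from 0.0843 to 1.82 FPKM, above its starved value of 1.46, so the values of both are less certain.

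The members with the smallest ratios were RNA components of ribonucleases. Rmrp, the RNA of RNase MRP, was listed at 27.7 FPKM in starved cells, 10.7 with PDGFA and 6.06 with FGF1. Rpph1, the RNA of RNase P, was listed at 19.7, 8.35 and 4.60 FPKM. For both genes the starved and FGF1 values lay outside their own deposited bounds, for instance 4.02 to 14.8 for starved Rmrp. The bounds also overlapped, with FGF1 upper bounds of 4.29 and 4.45 above starved lower bounds of 4.02 and 4.10. Neither gene thus counts as apart. These RNAs are made by RNA polymerase III and normally carry no poly(A) tail, while the libraries were poly(A)-selected, and the part of the selection in their values was not tested. The 3 long non-coding members are 0610040B10Rik, Gm15706 and 2610507I01Rik, of which 2610507I01Rik had the highest starved level, 4.11 FPKM (2.92 to 5.27), with 3.05 (1.40 to 4.69) and 3.05 (1.91 to 4.17). The transcribed pseudogene 4632415L05Rik had 4.75 FPKM (3.55 to 5.93), 3.16 (1.58 to 4.74) and 3.17 (2.06 to 4.29). None of 12 better-known long non-coding and host RNAs was a member, where 0.947% of all compared rows were. Of these 12, 4 were at most 0.75 times the starved value with PDGFA and 0 with FGF1. Over all compared rows the shares were 3.38% and 1.88%.

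Several further members were named after their values were seen or for their low ratios. Bbs10, a chaperonin-like protein needed for primary cilia, had 1.45 FPKM (0.913 to 1.98) in starved cells, 0.791 (0.249 to 1.328) with PDGFA and 0.740 (0.401 to 1.08) with FGF1. Ttc30b, a part of the transport machinery of cilia, had 2.57, 1.69 and 1.69 FPKM. It shares 44.4% of its words with other genes, so its values are less certain. Bbs10 is the third lowest of the protein-coding members by the larger ratio, and both its ligand values lay below the starved lower bound. Wdr5b, a relative of the histone methylation subunit Wdr5, had 2.50 FPKM (1.54 to 3.46), 1.505 (0.491 to 2.52) and 1.55 (0.853 to 2.24). Casp8ap2, a protein of histone gene expression and caspase-8 signalling, had 4.94, 3.59 and 3.68 FPKM, near the limit at ratios of 0.726 and 0.745. Wnt (40 compared genes), Hedgehog (12), receptor tyrosine kinase (30), F-box and Kelch (93) and matrix glycoprotein (54) lists held 0 members each, where 0.947% of all compared rows were members, so that under 1 member per list would stand at the same share.

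Genes with few exons were frequent among the members. The members had a median of 4 exons against 9 over the compared rows, and 23 (21.5%) had 1 or 2 exons against 7.38%. Among rows with no long finger array the share of members was 2.5% (7 of 280) at 1 exon, 2.26% (12 of 530) at 2, and 0.108% (5 of 4650) at 11 or more, with median starved levels of 6.05, 7.81 and 12.2 FPKM. The median log2 ratio of all rows with 1 exon and no long finger array was 0.07 with PDGFA and 0.03 with FGF1, so these rows as a whole were not low. Wdr5b and Ttc30b are members with 1 exon, and Bbs10 is one with 2. Transcript length was alike, with a median of 3152 nt in members and 3062 nt over all.

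The 3′ untranslated regions of the members were longer, with a median of 1357 nt against 1098. TATTTAT, an AU-rich element core tied to rapid mRNA decay, stood in 32 of 93 members with an annotated 3′ region of at least 50 nt (34.4%) and in 30.6% of 10885 compared rows. Per kb the motif was at 0.269 in members and 0.295 over all, so it was not denser in members. Among C2H2 rows 40.4% of members and 35.5% of all compared rows held it. The part of region length in these shares was not tested.

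Promoter windows of 300 bases, from 250 before the start to 50 after it, were in the RefSeq table for 85 member genes (100 windows) and were searched on both strands. CACGTG, the E-box core, was in 4% of member windows (Kcnj2, Ppp1r3d, Senp8 and Zfp708), 10.2% of compared windows, 6.65% of compared C2H2 windows and 7.15% of all 32851 windows. GTAAACA, the forkhead core bound by FOXO factors, was in 2% (Hgf and Zfp72), 2.39% and 3.65%. TGACGTCA, the full cAMP response element, was in 3% (Wdr5b, Zfp72 and Znrd1as), 3.09% and 1.79%. For the serum response element a single sequence was searched, 1 of the forms a CArG box can take, and that form was in 0% of member windows, 0.0342% and 0.0639%. Each match is a description of letters only, and no difference in share was tested. Member windows had a mean GC content of 55.9% against 61.2% for the compared ones.

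The rule holds both ligand values under the same limit, so likeness between them is in part built in. The median ratio to starved cells was 0.667 with PDGFA and 0.679 with FGF1, and 5 and 7 members were at or below 0.5. The ratio of the FGF1 to the PDGFA value had a median of 1.00 (1.01 over the compared rows) and a range of 0.551 to 1.54. In 73 members (68.2%) the values lay within 10% of each other, against 55.7% of compared rows, and FGF1 was the lower in 52. No member had FGF1 and PDGFA intervals apart, where 3 compared rows (0.0265%) lay apart in each direction. Besides Rpph1, Rmrp and the long non-coding 0610040B10Rik, Zfp3 and Kcnj2 had the lowest FGF1 to PDGFA ratios, 0.766 and 0.777. At the other end Ifit1, Gm14326 and Gucy1a1 had 1.54, 1.502 and 1.30. Gm14326 shares 93.7% of its words with other genes.

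How far the members stood from the starved interval differed between ligands. The PDGFA value lay below the starved lower bound in 56 members (1.92% of compared rows did) and the FGF1 value in 49 (0.823%). Measured from the other interval, the starved value lay above the PDGFA upper bound in 23 members (0.460%) and above the FGF1 upper bound in 68 (1.25%). The deposited intervals were wider with PDGFA, with a median width to each side of 65.6% of the value in members, against 43.5% with FGF1 and 33.5% in starved cells. Since the ratios chose the members, these counts describe them and nothing more is read from them. In Ddb2, Zfp599, Zfp810 and 9130023H24Rik, which lie in loci that hold several rows, the ligand bounds reached from 0 or near it to above the starved value, so their ratios carry little weight.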

How the data were processed

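PolyA RNA of 11 libraries in 3 groups was profiled. The build was mm10, and the tools CASAVA, TopHat and Cuffdiff, per the submitters' processing notes. The sources used here give no versions, settings or annotation. Per the file headers, the authors deposited FPKM as 1 value per group, each with a lower and an upper bound. The planned limma fit needs values per library and was not run. FPKM depends on transcript length and library totals, and a pseudocount was not used for the ratios. Instead a row was described as apart where deposited intervals did not overlap and each value lay inside its own interval.

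Rows were named by accession through RefSeq GRCm38.p6 (22988 rows) or GENCODE M21 (130), and 168 had no name. Length, GC, exons, C2H2 spacing (C-X2-C-X12-H-X3-5-H in the translated coding sequence) and shared 31-base words came from GENCODE M21. Positions are 1-based. The trend was a cubic Huber regression of the log2 ratio on GC, log2 length and log2 level with a pseudocount of 0.1 FPKM. Scripts were tested on simulated data.

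Members, lists and limits were chosen with earlier results of these data known. The rule for naming genes took Kcnj2 and Adamts15, the 20 members lowest by the larger ratio and the 6 most abundant. It also took the 6 lowest and 6 highest by FGF1 to PDGFA ratio and up to 6 per list. The 3 rows on each side of the limit and members with intervals apart completed it. Zfp40, Dusp15 and Zfp974 met this rule but are not described above. Names outside this rule were picked with their values in view. The alternatives changed the limit, minimum level, scaling, pseudocount, trend, shared rows and interval width. The regression used statsmodels 0.14.6, the tables pandas 2.3.3 and numpy 2.4.6, and the figures matplotlib 3.10.9, in Python 3.11.15 with scipy 1.17.1.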

Additional observations from a re-analysis of the deposited data

How the results depend on the processing

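With 1 value per group, none of the counts has a replicate check. No paired analysis was possible because the table holds no value per library, and leaving out each replicate was not run for the same reason. The 107 members became 32 at a ratio limit of 0.67 and 3 at 0.5, 50 at a minimum starved level of 2 FPKM and 12 at 5 FPKM, 40 with a pseudocount of 0.5 and 17 with 1. Upper-quartile scaling gave 185 and removal of the trend on GC, length and level 47, of which 37 were among the 107. The 57 zinc-finger members became 15 at 0.67 and 0 at 0.5, 3 at 5 FPKM, 24 and 5 with the pseudocounts, and 15 with the trend removed. Zinc-finger rows were thus no longer most of the members at limits of 0.67 and 0.5, at 5 FPKM, with a pseudocount of 1 or with the trend removed. The 17.8% of zinc-finger rows that were members became 4.67% at 0.67, 0% at 0.5, 2.54% at 5 FPKM, 7.48% and 1.56% with the pseudocounts, 4.67% with the trend removed, and 11.8% when 1 C2H2 repeat sufficed. Other rows stayed below these shares except at the limit of 0.5, where they were at 0.0273%. The median log2 ratio of zinc-finger rows was -0.12 with PDGFA and -0.12 with FGF1 at 5 FPKM, and -0.12 with PDGFA once the trend was removed. Members with 1 or 2 exons made up 33.3% at 5 FPKM. Calls of members apart went from 0 to 3 with PDGFA and from 2 to 11 with FGF1 at interval half-widths of the 84% level, taking the deposited bounds as 95% bounds, and from 2 to 1 with FGF1 with the trend removed. The share of all compared rows apart at these settings was not counted, so nothing is read from these calls about the members. Fewer rows can qualify at stricter limits, and low rows move most with a pseudocount by construction; the cause of the other changes was not tested. Median-of-ratios scaling gave 111 members and leaving out rows with shared words 94, with 59 and 46 zinc-finger members. No median changed sign.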
